A study of Homo sapiens with 8 samples.

Results

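The genes described here are 9 enzymes that reduce or oxidise aldehydes and ketones: the aldo-keto reductases AKR1A1, AKR1B1, AKR1B10, AKR1C1, AKR1C2 and AKR1C3, the aldehyde dehydrogenases ALDH3A1 and ALDH1A3, and the carbonyl reductase CBR1. They were chosen by name, with earlier results of these data known, out of 58735 genes in the deposited tables. Of these, 35784 had a rounded count in any library. The study exposed BEAS-2B cells, an immortalised line of human bronchial epithelium, at an air-liquid interface and sequenced their RNA before and after pull-down with an antibody against 8-oxo-7,8-dihydroguanosine (8-oxoG), an oxidised form of guanosine. The 4 groups were CA_IN (clean air, input RNA), FA_IN (1 ppm formaldehyde, input RNA), CA_IP (clean air, RNA bound by the antibody) and FA_IP (1 ppm formaldehyde, RNA bound by the antibody), each with 2 libraries numbered replicate 1 and replicate 3. All groups had 2 h in the exposure chamber, 6 h of recovery in fresh medium and the same depletion of ribosomal RNA, and the input and bound RNA of each exposure and replicate were fractions of 1 RNA pool. The cells were a single line, so a level is an average over the culture, in which fewer expressing cells and less RNA per cell cannot be told apart.

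Aldo-keto reductases are cytosolic enzymes that use NADPH to turn aldehydes and ketones into alcohols. AKR1A1 acts on many aldehydes, AKR1B1 reduces glucose to sorbitol, AKR1B10 acts on retinal and lipid-derived aldehydes, and the AKR1C enzymes also act on steroids. CBR1 reduces quinones and prostaglandins, ALDH3A1 oxidises aldehydes that arise from lipid peroxidation, and ALDH1A3 oxidises retinal to retinoic acid. Formaldehyde itself is oxidised mainly by another route: it joins glutathione, ADH5 oxidises the adduct, and ESD (S-formylglutathione hydrolase) releases formate. Several of these genes, AKR1B10 and the AKR1C genes among them, are known in airway and other epithelia as targets of NRF2, the transcription factor of the antioxidant response.

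Total expected counts ranged from 26152651 to 45144392 in the 4 input libraries and from 16883500 to 23658012 in the 4 pull-down libraries. Among 8 airway epithelial keratins and related markers, KRT17 was highest in CA_IN at 349 ± 60.8 TPM (a share of a library's transcripts corrected for length, mean ± SD, n = 2), with KRT18 at 179 ± 3.06 and KRT5 at 136 ± 26.1. Of 11 markers of other airway and stromal cells, 7 were too low to test: the club cell gene SCGB1A1 reached at most 2 counts in a library, the goblet cell genes MUC5AC and MUC5B at most 3 and 6, the ciliated cell gene FOXJ1 7, the fibroblast genes DCN and LUM 3 and 2, and the leukocyte gene PTPRC 2. Of the other 4, CD68 and COL1A1 were highest at 1.83 ± 0.419 and 1.18 ± 0.0664 TPM in CA_IN. RN7SL1, a non-coding RNA of the signal recognition particle, took 18.0 to 19.8% of the TPM of an input library and 28.9 to 31.6% of that of a pull-down library. In counts its share was similar in both, at 4.05 to 5.09% of an input library and 4.01 to 4.99% of a pull-down library. TPM is therefore compared here only among inputs, and input and pull-down are compared in CPM, a gene's share of a library's counts, scaled by the trimmed mean of M values (TMM).

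The AKR1C genes lie side by side on chromosome 10 (GRCh38): AKR1C1 at chr10:4963253-4983283, AKR1C2 at chr10:4987775-5018031 on the other strand, and AKR1C3 at chr10:5035354-5107686. Their coding sequences are close copies, which bears on each value below, because a 75-base read can match more than 1 of them. Over 972 coding bases AKR1C1 and AKR1C2 differed at 19 (98% identical), AKR1C1 and AKR1C3 at 83 (91.5%), and AKR1C2 and AKR1C3 at 87 (91%). The longest stretch shared without a difference by AKR1C1 and AKR1C2 was 189 bases, and 302 of 898 coding windows of 75 bases were identical in both. The window in which these 2 genes differ most, coding bases 88 to 162 in exon 2, is shown from the annotated transcripts (GENCODE 44) to make visible how few bases separate the copies. Capitals mark, in AKR1C1 and AKR1C2, the 10 bases at which those 2 differ and, in AKR1C3, the 9 at which it differs from AKR1C1.
AKR1C1, chr10:4965917-4965991, + strand: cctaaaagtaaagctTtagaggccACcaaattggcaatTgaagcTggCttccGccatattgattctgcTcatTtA
AKR1C2, chr10:5001604-5001678, - strand: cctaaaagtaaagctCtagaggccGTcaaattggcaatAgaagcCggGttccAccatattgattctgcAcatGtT
AKR1C3, chr10:5096413-5096487, + strand: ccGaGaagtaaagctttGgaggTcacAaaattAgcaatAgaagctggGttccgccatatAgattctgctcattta

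In the leading transcript of each gene, the share of 75-base windows also found in a transcript of another gene was 47.3% for AKR1C2, 16.8% for AKR1C1 and 12.3% for AKR1C3. For AKR1B10 it was 7.31%, shared with AKR1B15 and the pseudogene AKR1B10P1. No window of AKR1A1, AKR1B1, ALDH3A1 or ALDH1A3 was shared. CBR1 shared 27.1% of its windows with 1 overlapping non-coding gene that the deposited tables do not list, so its counts were not divided with that gene. The values of AKR1C1, AKR1C2 and AKR1C3 are estimates in which reads that match several copies were divided among them, and they are also given below as a sum.

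All 9 genes were detected in all 8 libraries, at levels that spanned more than an order of magnitude. In clean air input, 4 genes stood apart at the top. ALDH1A3 (chr15:100877714-100916626) was at 36.0 TPM in replicate 1 and 39.8 TPM in replicate 3. AKR1B1 (chr7:134442356-134459284) was at 25.9 and 24.3 TPM, CBR1 (chr21:36069941-36073166) at 18.5 and 18.6 TPM, and AKR1A1 (chr1:45550543-45570049) at 17.3 and 15.6 TPM. Each of the 4 lay above the next with no overlap between libraries. Together they held 94.1% of the summed TPM of the 9 genes, and each was above 93.4% or more of the 31586 genes detected in CA_IN.

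The other 5 genes were near or below 2 TPM. ALDH3A1 (chr17:19737984-19748943) was at 1.74 and 2.04 TPM and AKR1C2 at 1.95 and 1.55 TPM, and these ranges overlapped. AKR1C3 was at 1.2 and 1.31 TPM. AKR1B10 (chr7:134527567-134541412) was at 0.468 TPM in replicate 1 and 1.11 TPM in replicate 3, a range that overlapped with that of AKR1C1, at 0.485 and 0.447 TPM. The mean of ALDH1A3 was 81.3 times that of AKR1C1. In all, 7 of the 9 genes were at 1 TPM or more in both CA_IN libraries, the exceptions being AKR1B10 and AKR1C1. The summed level of AKR1C1, AKR1C2 and AKR1C3 was 3.63 TPM in replicate 1 and 3.31 TPM in replicate 3, still below AKR1A1 alone.

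**Figure D1:**
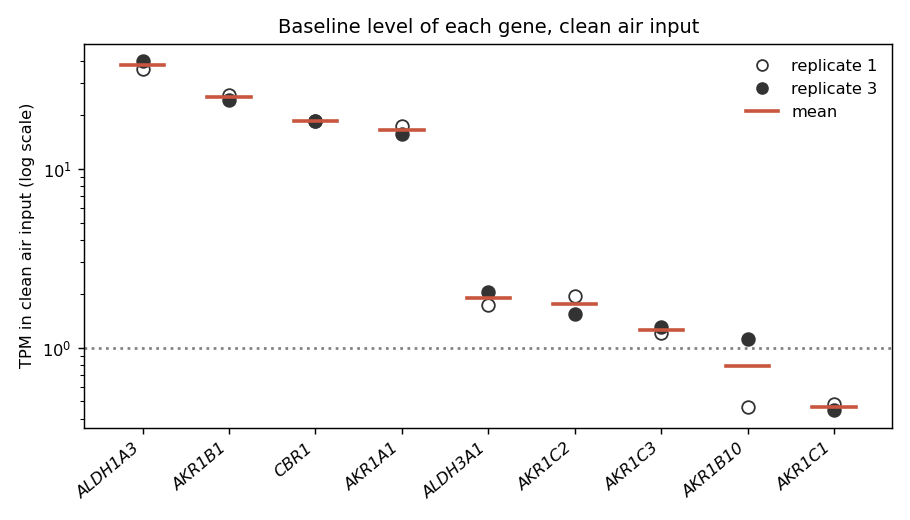
Level of each gene in clean air input, in TPM on a log scale (open circles replicate 1, filled circles replicate 3, red bars the mean, dotted line 1 TPM). ALDH1A3, AKR1B1, CBR1 and AKR1A1 lie between 15.6 and 39.8 TPM, the other 5 genes at 2.04 TPM or less, and on this scale the replicates are farthest apart for AKR1B10.

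Relatives in the same enzyme families showed where these levels sit. Of 7 other aldo-keto reductases, AKR7A2, an aflatoxin aldehyde reductase, was at 13.5 ± 0.895 TPM in CA_IN (mean ± SD, n = 2), while the next, AKR1E2 and AKR7L, were at 0.626 ± 0.00857 and 0.257 ± 0.0266 TPM. The liver enzymes AKR1C4 and AKR1D1 reached at most 1 and 4 counts in a library, and AKR1B15 at most 5, so they were not tested. Among 17 other aldehyde dehydrogenases, ALDH7A1 (lysine breakdown) was highest at 25.0 ± 0.157 TPM, then ALDH3A2 (fatty aldehydes) at 16.3 ± 0.274 and ALDH18A1 (proline synthesis) at 11.3 ± 0.485 TPM. ALDH1A2 and ALDH3B2 reached at most 6 and 9 counts and were not tested. Among 10 other carbonyl reductases and short-chain dehydrogenases, DCXR (xylulose reductase) was at 47.8 ± 2.93, HSD17B12 (fatty acid elongation) at 22.7 ± 2.43 and DHRS7 at 16.3 ± 0.486 TPM, and DHRS9, with at most 4 counts, was not tested. ADH5 and ESD, the enzymes of the glutathione route of formaldehyde, were at 56.2 ± 0.954 and 35.9 ± 3.23 TPM.

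In AKR1B1 and CBR1 nearly all of the signal was assigned to 1 isoform. Over the 8 libraries AKR1B1-201 held 93.5 to 97.5% of the gene's count and CBR1-201 held 98 to 99.6%. AKR1B10-201 held 100% and 97.6% in CA_IN and 95.8% or more in 6 of the 8 libraries. In the replicate 1 libraries of CA_IP and FA_IP, with 44 and 42 counts for the gene, it held 81.7% and 73.3%. ALDH1A3 was divided between 2 coding isoforms with listed lengths of 3924 and 3104 nt. The shorter, ALDH1A3-202, held 31.3% of the count in both CA_IN libraries and 25.9% and 27.6% in the FA_IN libraries. In the pull-down it held 18.9% and 17.1% of CA_IP and 25.7% and 18.3% of FA_IP. Its share was thus lower in each pull-down library than in each input library, the closest values being 25.9% and 25.7%. This was chosen after its values were seen and was not tested. The counts of AKR1C1, AKR1C2, AKR1C3, AKR1A1 and ALDH3A1 were spread over 2 to 4 isoforms that each held at least 10% in CA_IN. AKR1C1-202, the leading AKR1C1 transcript, has a listed length of 6705 nt and held 45% and 36.7% of that gene's count in CA_IN.

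The first comparison asked whether formaldehyde changed the level of these genes in input RNA. All 9 genes had enough counts to be tested. None of the 9 passed the test (edgeR quasi-likelihood test, Benjamini-Hochberg adjustment over 18242 genes, smallest adjusted p 0.945), and none had an unadjusted p under 0.05. In the background, 1 of 18242 genes passed (0.00548%), and 3.35% had an unadjusted p under 0.05. DESeq2 on the same 8 libraries also called none of the 9. The estimates were small: the log2 fold changes ran from -0.23 for AKR1C2 to 0.29 for AKR1C3, with a median of 0.14 beside 0.019 over all genes tested.

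The 2 genes with the lowest unadjusted p-values of the 9 were both highly expressed. AKR1A1 was at 45.8 and 41.8 CPM in CA_IN (replicates 1 and 3) and at 50.3 and 49.8 CPM in FA_IN. AKR1B1 was at 82.2 and 80.9 CPM in CA_IN and 87.6 and 92.2 CPM in FA_IN. For both genes the groups did not overlap, as also for AKR1C1 at 1.77 and 1.75 against 1.96 and 1.82 CPM. That made 3 of 9 genes with each FA_IN library above each CA_IN library, beside 18.1% of all genes tested. The log2 fold change was 0.19 (95% interval -0.023 to 0.41) for AKR1A1 and 0.14 (-0.070 to 0.35) for AKR1B1. A rise of 1.5-fold lay outside both intervals, whose upper ends were 0.41 and 0.35 on the log2 scale.

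For ALDH1A3 the groups overlapped, at 289 and 330 CPM in CA_IN and 296 and 346 CPM in FA_IN, and so did those of CBR1, at 55.0 and 57.0 against 56.9 and 57.7 CPM. The log2 fold change of CBR1 was 0.034 (95% interval -0.23 to 0.29) and that of ALDH1A3 was 0.054 (-0.23 to 0.34). The precision was lower for the genes with few counts. ALDH3A1 was at 6.71 and 7.98 CPM in CA_IN and 6.28 and 10.4 CPM in FA_IN, with a log2 fold change of 0.19 (-0.50 to 0.89). AKR1B10, with 39 to 168 counts in an input library, had the widest interval, -1.33 to 1.69 around 0.18. A 2-fold change of AKR1B10 in either direction lay within this interval. With the replicate number as a block the interval was -0.25 to 0.46 around 0.11, which leaves out a 2-fold change. The methods describe clean air and formaldehyde chambers run in parallel, but the sources used here do not tie a replicate number to an exposure day.

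For the AKR1C genes the estimates differed in sign. AKR1C2 was at 4.98 and 4.21 CPM in CA_IN and 3.20 and 4.57 CPM in FA_IN, a log2 fold change of -0.23 (95% interval -0.73 to 0.26). AKR1C3 was at 3.72 and 4.40 CPM in CA_IN and 3.99 and 5.87 CPM in FA_IN, a log2 fold change of 0.29 (-0.27 to 0.85). AKR1C1 gave 0.099 (-0.37 to 0.57). With AKR1C1 to AKR1C4 summed before the fit, so that the division of shared reads no longer entered, the log2 fold change was 0.046 (SE 0.17, adjusted p = 0.98). Of the other lists, none of 4 aldo-keto reductases, 15 aldehyde dehydrogenases, 9 carbonyl reductases, 2 genes of formaldehyde oxidation and 18 NRF2 pathway genes tested passed in either direction.

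**Figure D2:**
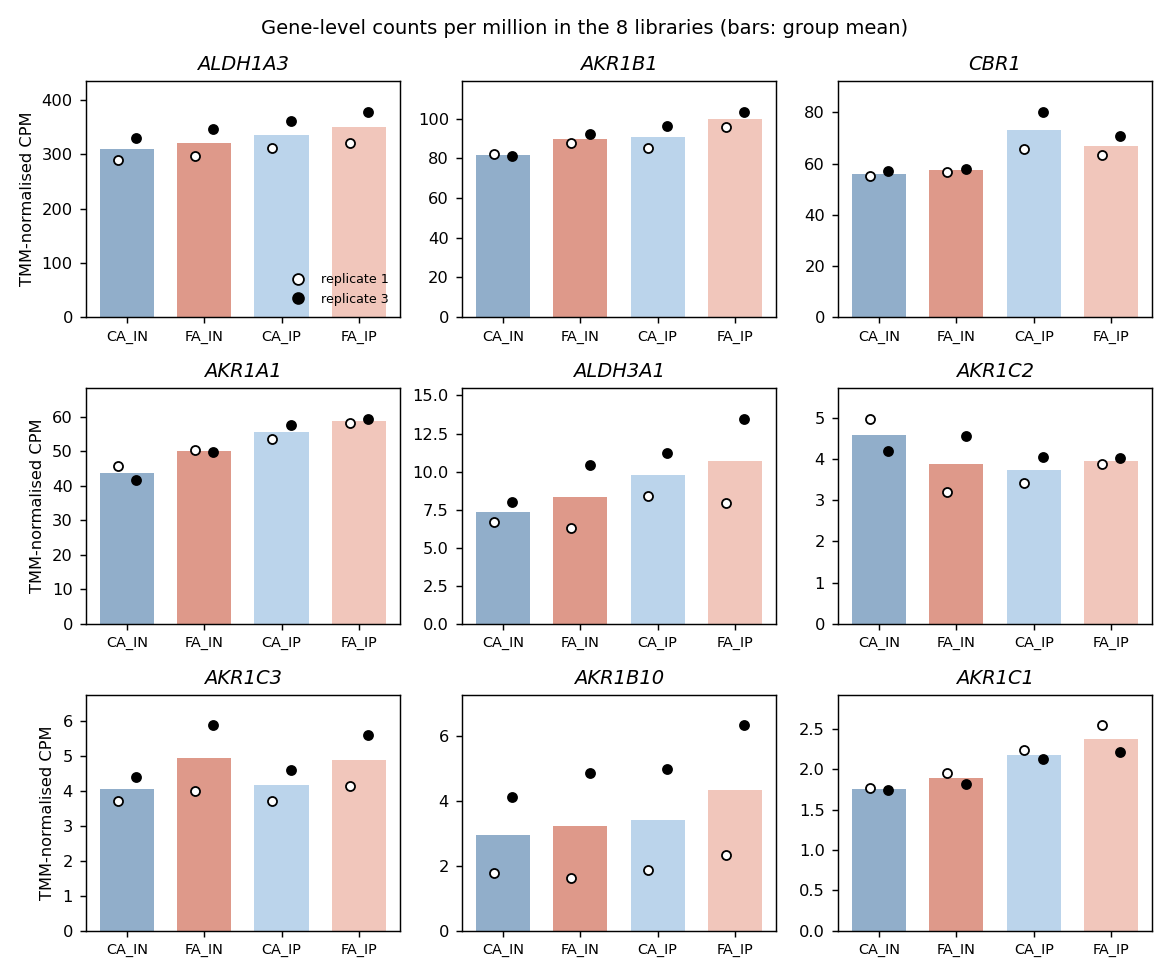
TMM-normalised CPM of the 9 genes in the 8 libraries, with the axis of each gene starting at 0 (bars the mean of the 2 libraries of a group, open circles replicate 1, filled circles replicate 3). AKR1A1 and CBR1 are higher in each pull-down library than in each input library, and AKR1B10 is higher in replicate 3 than in replicate 1 in all 4 groups.

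The second set of comparisons asked which RNAs were over- or under-represented in the 8-oxoG pull-down relative to input. With 2 libraries a group, none of the 9 genes passed in clean air (CA_IP against CA_IN, 0.148% of all genes called higher and 1.77% lower) or after formaldehyde (FA_IP against FA_IN, 0.0329% higher and 1.47% lower). At an unadjusted p under 0.05 there were 2 in clean air, AKR1A1 and CBR1, and 1 after formaldehyde, AKR1A1, beside 12.6% and 9.1% of all genes. DESeq2 on all 8 libraries also called none in either exposure. Averaged over both exposures, AKR1A1 passed as higher in the pull-down and no other gene of the 9 passed, beside 2.15% of all genes called higher and 3.04% lower. At an unadjusted p under 0.05 there were AKR1A1 and CBR1, beside 17.8% of all genes.

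AKR1A1 was at 41.8 to 50.3 CPM in the 4 input libraries and at 53.6, 57.5, 58.2 and 59.5 CPM in the pull-down libraries CA_IP 1, CA_IP 3, FA_IP 1 and FA_IP 3. The fractions did not overlap. The log2 fold change was 0.34 (SE 0.095, adjusted p = 0.144) in clean air, 0.23 (SE 0.095, adjusted p = 0.495) after formaldehyde and 0.29 (SE 0.067, adjusted p = 0.0442) in the mean, which is 1.22-fold. This call was narrow: it was lost with any 1 of the 8 libraries left out, with adjusted p-values from 0.0584 to 0.197. It was also lost with DESeq2 size factors in place of TMM (adjusted p = 0.0564) and held with DESeq2 (adjusted p = 0.0266).

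CBR1 was at 55.0 to 57.7 CPM in the input libraries and at 65.7, 80.2, 63.2 and 70.8 CPM in the pull-down libraries, again without overlap. Its log2 fold change was 0.38 (SE 0.11, adjusted p = 0.176) in clean air, 0.23 (SE 0.12, adjusted p = 0.656) after formaldehyde and 0.30 (SE 0.081, adjusted p = 0.0726) in the mean. Without CA_IP replicate 1 the mean was 0.37 and passed (adjusted p = 0.0326). The third gene whose fractions did not overlap was AKR1C1, at 1.75 to 1.96 CPM in input and 2.12 to 2.54 CPM in the pull-down, with a mean log2 fold change of 0.32 (SE 0.15, adjusted p = 0.315). These 3 of 9 genes stand beside 7.76% of all genes with each pull-down library above each input library.

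For the other genes the fractions overlapped. ALDH3A1 was at 6.28 to 10.4 CPM in input and 7.91 to 13.5 CPM in the pull-down (mean log2 fold change 0.39, SE 0.22), and AKR1B10 at 1.62 to 4.86 and 1.86 to 6.33 CPM (0.31, SE 0.48). ALDH1A3 was at 289 to 346 and 312 to 378 CPM (0.12, SE 0.089) and AKR1B1 at 80.9 to 92.2 and 85.0 to 103 CPM (0.15, SE 0.066). AKR1C2 gave -0.14 (SE 0.16) and AKR1C3 gave 0.0053 (SE 0.18), and the AKR1C sum gave 0.0053 (SE 0.13). The median over the 9 genes in the mean of both exposures was 0.29, beside 0.0064 over all genes tested.

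Because the input and bound RNA of a replicate came from 1 pool, the same comparison was also made with the RNA pool as a block, which takes the difference between pools out of the error. In clean air 3 genes then passed as higher in the pull-down: CBR1 (log2 fold change 0.38, adjusted p = 0.0011), AKR1A1 (0.34, adjusted p = 0.0025) and ALDH3A1 (0.41, adjusted p = 0.013), beside 11.6% of all genes called higher. After formaldehyde none of the 9 passed, beside 5.45% called higher, the smallest adjusted p-values being 0.0508 for ALDH3A1 and 0.0536 for AKR1A1. In the mean of both exposures 5 genes passed as higher, beside 15.5% of all genes: CBR1 (0.30, adjusted p = 0.00019), AKR1A1 (0.29, adjusted p = 0.00029), ALDH3A1 (0.38, adjusted p = 0.00098), AKR1B1 (0.15, adjusted p = 0.031) and ALDH1A3 (0.12, adjusted p = 0.040). The AKR1C genes and AKR1B10 did not pass under the block. Their estimates were 0.32 for AKR1C1, -0.15 for AKR1C2, 0.0041 for AKR1C3 and 0.31 for AKR1B10. The 5 genes that passed had 143 counts or more in each library, and each of the other 4 had 75 or fewer in at least 1 library. This split was drawn after the calls were seen, and the part of depth was not tested.

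**Figure D3:**
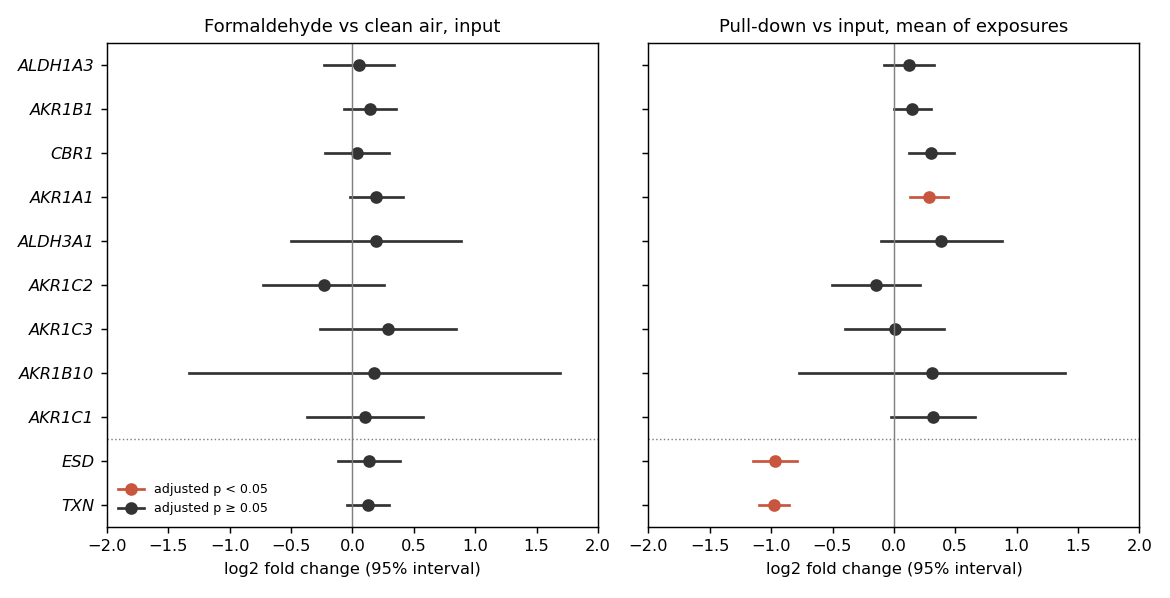
Log2 fold change with its 95% interval for the 9 genes and, below the dotted line, ESD and TXN, for formaldehyde against clean air in input (left) and for pull-down against input averaged over both exposures (right). Red marks an adjusted p under 0.05 in the fit without a block: AKR1A1 at 0.29, ESD at -0.97 and TXN at -0.98.

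Of the genes of related lists that passed in the pull-down comparison, those with the largest differences were lower in the pull-down. In the mean of both exposures, 2.15% of all genes were called higher and 3.04% lower. ESD was between 93.4 and 117 CPM in the input libraries and between 45.4 and 63.5 CPM in the pull-down, with a log2 fold change of -1.07 in clean air (adjusted p = 0.0013), -0.87 after formaldehyde (adjusted p = 0.0051) and -0.97 in the mean (adjusted p = 0.00016). ADH5, its partner in the glutathione route, was at 178 to 213 CPM in input and 189 to 220 CPM in the pull-down, and did not pass. Of 18 NRF2 pathway genes, TXN (thioredoxin) was lower in the pull-down, at -0.98 on the log2 scale in the mean (adjusted p = 1.8e-05), and TKT (transketolase) was higher, at 0.32 (adjusted p = 0.020). Of 8 epithelial markers, KRT8 was higher by 0.40 (adjusted p = 0.0040) and KRT18 by 0.39 (adjusted p = 0.012). None of the 4 other aldo-keto reductases, 15 aldehyde dehydrogenases, 9 carbonyl reductases and 4 markers of other cell types that were tested passed in the mean.

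The antibody recognises an oxidised guanine, so the guanine content and length of the leading transcript of each gene are given beside these values. Over all genes tested the median listed length was 2578 nt. Over those with a transcript sequence (98.3%) the median guanine content was 24.7%. CBR1 (28.9%), ALDH3A1 (28.4%), AKR1A1 (28.1%) and AKR1B1 (27.1%) were above that median, as were AKR1C2 (25.7%) and ALDH1A3 (25.3%). AKR1B10 (24.5%), AKR1C3 (23.9%) and AKR1C1 (21.4%) were below it. ESD and TXN, which were lower in the pull-down, had 19.9% and 19.3% guanine, and 10.7% and 7.06% of the genes with a sequence had less. Guanine content was not taken for TKT, KRT8 and KRT18, which were higher, so ESD and TXN do not stand for all that passed. The listed lengths were 1192 nt for ESD, 869 nt for TXN, 1166 nt for AKR1A1 and 1293 nt for CBR1. The listed lengths differed from those of the sequences used for the shared windows in AKR1A1, AKR1B1, AKR1B10, AKR1C1, AKR1C3, ALDH1A3 and CBR1. Those of AKR1C2 and ALDH3A1 matched. The sequence of AKR1A1 held 1333 windows of 75 bases and that of CBR1 held 1134. That of AKR1C3 held 1112 such windows, beside a listed length of 1807 nt. The parts of guanine content and of length in the pull-down differences were not tested.

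The third comparison asked whether formaldehyde altered the pull-down of these genes, as the difference between FA_IP against FA_IN and CA_IP against CA_IN. None of the 9 passed, and none had an unadjusted p under 0.05 (1.07% of all genes did, and 0% passed after adjustment). The log2 differences ran from -0.16 for CBR1 (95% interval -0.53 to 0.21) to 0.32 for AKR1C2 (-0.40 to 1.03), with a median of -0.0033. That of AKR1A1 was -0.11 (-0.42 to 0.20), that of AKR1B1 -0.0033 (-0.30 to 0.30) and that of ALDH1A3 0.0035 (-0.40 to 0.41). For these 3 genes a 2-fold difference between exposures lay outside the interval. For AKR1B10 it lay within the interval (-1.97 to 2.37), but outside it with the RNA pool as a block (-0.27 to 0.72 around 0.22). The pull-down of CBR1, AKR1A1 and ALDH3A1 passed under the block in clean air and not after formaldehyde, but the test of that difference did not pass for any of them (adjusted p = 1 with and without the block).

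The largest contrast of the 9 genes lay between the replicates rather than between the groups. AKR1B10 was at 1.77, 1.62, 1.86 and 2.32 CPM in the replicate 1 libraries of CA_IN, FA_IN, CA_IP and FA_IP, and at 4.13, 4.86, 4.97 and 6.33 CPM in the replicate 3 libraries. Each replicate 3 library was above each replicate 1 library. In counts, this was 77, 39, 44 and 42 against 151, 168, 103 and 154. Over all genes, 0.153% (28 of 18242) were at least 2-fold higher in replicate 3 in all 4 groups, AKR1B10 among them.

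A term for the replicate number was then fitted in edgeR, separately in the 4 input and the 4 pull-down libraries, after this pattern had been seen. In input, 3 of the 9 genes were higher in replicate 3, beside 6.24% of all genes: AKR1B10 by 2.62-fold (log2 1.39, SE 0.19, adjusted p = 2e-05), ALDH3A1 by 1.40-fold (0.49, SE 0.14, adjusted p = 0.015) and ALDH1A3 by 1.17-fold (0.22, SE 0.060, adjusted p = 0.013). In the pull-down the same 3 were higher, beside 4.69% of all genes, with 2.47% of all genes higher in both fractions: AKR1B10 by 2.71-fold (adjusted p = 7.8e-05), ALDH3A1 by 1.51-fold (adjusted p = 0.0098) and ALDH1A3 by 1.17-fold (adjusted p = 0.019). The pull-down libraries hold RNA from the same pools as the inputs and are not independent of them. No member was lower in replicate 3, and AKR1A1, AKR1B1 and AKR1C1 had input estimates between -0.061 and 0.037.

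Other genes of the fixed lists moved with the replicate too. The basal keratins KRT5, KRT14 and KRT17 and the basal cell transcription factor TP63 were higher in replicate 3 in both fractions. These were 4 of 8 epithelial markers, beside 2.47% of all genes. Their log2 differences in input were 0.49, 0.74, 0.40 and 0.89. The other markers, KRT8, KRT18, EPCAM and CDH1, did not pass in input, at 0.0114, 0.0663, 0.043 and -0.0535. Of these, KRT18 passed as higher in the pull-down only (0.18, adjusted p = 0.036). In CA_IN, TP63 was at 27.1 CPM in replicate 1 and 50.5 CPM in replicate 3, and KRT14 at 32.7 and 53.1 CPM. Of 18 NRF2 pathway genes, 3 were lower in replicate 3 in both fractions, beside 4.61% of all genes: the NRF2 inhibitor KEAP1 (-0.40 in input), the quinone reductase NQO1 (-0.28) and the sulfiredoxin SRXN1 (-0.43). None was higher in both. ME1 (malic enzyme) was higher in replicate 3 in input (0.31, adjusted p = 0.0094) and did not pass in the pull-down. In input, 1 of the 18 passed as higher in replicate 3 and 4 as lower, beside 1138 and 1602 of all 18242 genes. In the pull-down, 0 passed as higher and 3 as lower, beside 856 and 1219 of all genes. The part of NRF2 in the replicate differences was not tested. None of the 4 tested markers of other cell types (CD68, COL1A1, CDH5 and PECAM1) passed in either fraction. The labels give no date, passage or batch for the replicates, and their part in these differences was not tested.

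**Figure D4:**
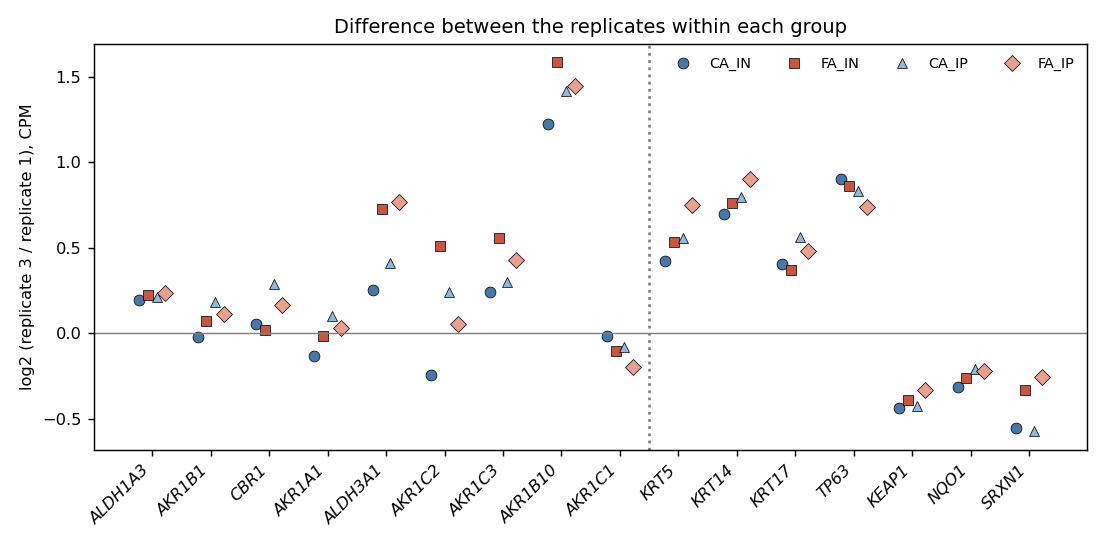
Log2 ratio of replicate 3 to replicate 1 in CPM within each of the 4 groups, for the 9 genes (left of the dotted line) and for epithelial markers and NRF2 pathway genes that differed between replicates in both fractions (right). AKR1B10 lies above 1 in all 4 groups, TP63 and the basal keratins lie above 0, and KEAP1, NQO1 and SRXN1 lie below 0.

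In the fit without a block, the replicate difference was part of the spread within each group. For AKR1B10 the SD between the 2 libraries of a group was 1.67, 2.29, 2.20 and 2.83 CPM around means of 2.95, 3.24, 3.41 and 4.33 CPM in CA_IN, FA_IN, CA_IP and FA_IP. With the RNA pool as a block, the SE of its pull-down difference was 0.12 in place of 0.48 on the log2 scale, around an estimate of 0.31 (adjusted p = 0.065). The SE changed less for AKR1A1, at 0.054 in place of 0.067, and for AKR1C1, at 0.16 in place of 0.15.

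The summed count of AKR1C1, AKR1C2 and AKR1C3 varied little between libraries. In input it was 10.5 and 10.4 CPM with clean air and 9.15 and 12.3 CPM with formaldehyde. In the pull-down it was 9.38 and 10.8 CPM with clean air and 10.6 and 11.8 CPM with formaldehyde. Behind these values stood 191 to 456 counts a library. The range was 0.42 on the log2 scale, and the groups overlapped in each comparison. Among 8935 other genes with a mean of at least 10 CPM, the 5 whose log2 CPM followed this sum most closely over the 8 libraries were OFD1 (Pearson r 0.958), HFE (0.952), MLX (0.946), DCPS (0.925) and GSDME (0.919). These are the highest of many correlations over 8 libraries that share pools and depths, and OFD1 itself varied by 0.12 on the log2 scale.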

How the data were processed

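RNA was sequenced as 75-base paired reads in 8 libraries of 4 groups. Per the labels and the study's methods, the authors trimmed reads with cutadapt, aligned them to GRCh38 (Ensembl annotation) with STAR 2.6.0a and estimated expected counts and TPM per transcript with RSEM 1.2.25. RSEM divides reads that match several transcripts among them. The deposited expected counts were summed per gene and rounded for the tests. TPM for levels within input libraries was recomputed from the expected count and effective length of each isoform and summed per gene. The deposited TPM values served 1 alternative for the levels, and effective lengths as an offset served 1 alternative for the tests. The deposited tables of the authors' own comparisons (fold changes and p-values) were not used. The sample labels and the study's own methods name antibody clone 15A3, and the extraction protocol of the samples names clone 2E2. Replicate numbers 1 and 3 are those of the deposited tables.

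Genes with at least 10 counts in at least 2 libraries (18242) were tested with edgeR 4.0.16 (quasi-likelihood, TMM, 4 groups, prior count 0.125, R 4.3.3), with Benjamini-Hochberg adjustment and a threshold of 0.05. The coefficient of variation between replicates was 0.138. p-values measure the spread between 2 libraries a group, which the labels call biological duplicates. The mean of both exposures and the interaction were contrasts of the same fit. On data simulated for FA_IN against CA_IN (18242 genes), 170 of 200 changes of 4-fold were recovered, with 22 other calls.

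The pairing of input and pull-down comes from the methods, and the replicate differences of the paired groups correlated (Pearson r 0.38 in clean air and 0.246 after formaldehyde, over genes). Alternatives were DESeq2 1.42.0 and other scalings, filters, blocks, lengths, isoform sets and libraries left out. Named were all 9 genes and, of the other lists, those that passed a comparison and the 3 highest in CA_IN. Isoforms were described from 10% of a gene's count, and ALDH1A3 was singled out after its values were seen, as were the genes named for the replicate difference and those too low to test. The genes and lists were chosen with earlier results of these data known. Gene positions and sequences are from GENCODE 44, on GRCh38 as in the deposited tables. The values of 1 gene of the NRF2 pathway list are not reported here.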

Additional observations from a re-analysis of the deposited data

How the results depend on the processing

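No gene of the 9 passed for formaldehyde against clean air in input under any of the 20 alternatives that gave a value (smallest adjusted p 0.295), and no gene passed in FA_IP against FA_IN or in the interaction. Of 900 log2 fold changes recomputed, 795 kept their sign and side of the threshold, 12 lost a call, 17 gained one, and 76 changed sign, none of those with an adjusted p under 0.05. The number of genes called in the mean of pull-down against input, 1 (AKR1A1), was 0 with DESeq2 size factors, without a filter, with effective lengths as an offset and with protein-coding isoforms only, 2 with DESeq2, 3 with library size or the replicate block, and 5 with the RNA pool as a block. With 1 library left out it ranged from 0 to 1, the 1 being CBR1 without CA_IP replicate 1. In CA_IP against CA_IN, 0 became 2 with library size or the replicate block and 3 with the RNA pool as a block. Library size in place of TMM raised the median of all genes by 0.148 to 0.169 in the pull-down comparisons. No source used here ties the replicate number that formaldehyde and clean air share to an exposure day. With it as a block none of the 9 genes passed in input, while all-gene calls went from 0 higher and 1 lower to 14 and 244, and the replicate differences of CA_IN and FA_IN correlated at 0.283. The number of genes at 1 TPM or more in both CA_IN libraries was 7 and did not move by over 1.5 times. The cause of these changes was not tested.

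With all libraries kept, the estimates that changed sign were at most 0.146 in size. AKR1C3 in the mean was -0.0069 (DESeq2), -0.0073 (DESeq2 size factors), -0.019 (no filter), -0.014 (mean count of at least 50), -0.086 (effective length) and -0.023 (protein-coding isoforms). In CA_IP against CA_IN it was -0.0031, -0.0041, -0.065 and -0.0043 in the last 4 of these and -0.050 with near-identical copies summed, and in FA_IP against FA_IN 0.14 (library size) and 0.060 (copies summed). AKR1B1 in the interaction was 0.0046, 0.0044, 0.018, 0.029, 0.051 and 0.053 in the same order as AKR1C3 in the mean, and 0.020 with library size. With library size CBR1 in input was -0.0066 and AKR1C2 in the mean 0.012. AKR1C2 was -0.0011 in FA_IP against FA_IN without a filter. AKR1C1 in input was -0.022 (effective length) and -0.095 (protein-coding isoforms), and in CA_IP against CA_IN -0.050 (copies summed) and -0.046 (protein-coding isoforms). With copies summed AKR1C2 was 0.046 in input and 0.0053 in the mean, and AKR1C3 0.11 in the interaction. ALDH1A3 in the interaction was -0.15 with effective length.

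With 1 library left out, estimates that changed sign reached 0.876 in size. In input AKR1B10 ranged from -0.88 to 0.90, ALDH1A3 from -0.088 to 0.15, AKR1C3 from -0.046 to 0.52, ALDH3A1 from -0.25 to 0.49 and CBR1 from -0.00065 to 0.052. In CA_IP against CA_IN AKR1B10 ranged from -0.65 to 0.93 and AKR1C3 from -0.12 to 0.18, and in FA_IP against FA_IN AKR1B10 from -0.49 to 1.45, AKR1C2 from -0.20 to 0.32, AKR1C3 from -0.25 to 0.31 and ALDH3A1 from -0.068 to 0.79. In the mean AKR1B10 ranged from -0.15 to 0.82 and AKR1C3 from -0.12 to 0.16. In the interaction AKR1C3 ranged from -0.26 to 0.30, ALDH3A1 from -0.46 to 0.40, AKR1B1 from -0.091 to 0.089, AKR1B10 from -0.68 to 1.26, ALDH1A3 from -0.097 to 0.16 and AKR1C1 from -0.076 to 0.16. AKR1B10 and the AKR1C genes had 39 to 217 counts a library. With the RNA pool as a block the SE in the mean went from 0.48 to 0.12 for AKR1B10 and from 0.15 to 0.16 for AKR1C1, at the same depth. The part of depth in these errors was not tested.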
